A study of Mus musculus with 58 samples.

Results

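The 9 genes described here are MHC class I heavy chain genes of the mouse and the gene of their shared light chain, measured in the striatum. They are the classical heavy chain genes H2-K1 and H2-D1, the nonclassical genes H2-Q4, H2-Q6, H2-Q7, H2-T22, H2-T23 and H2-M3, and B2m, the gene for beta-2 microglobulin. The list was selected on measured values, because its genes lie in a locus that varies between strains and had been seen to differ between the mouse lines and with genotype in these data. The line difference and the genotype effect of these genes are therefore given as a description, with no p. All 9 genes were present among the 54532 genes of the RNA-seq tables and among the 18411 genes of the lysate RNA and ribosome footprint tables.

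A class I molecule is a membrane-bound heavy chain that holds a short peptide and associates with beta-2 microglobulin. Peptides made by the proteasome are carried into the endoplasmic reticulum by the TAP transporter and loaded with the help of tapasin and chaperones, and the finished complex is shown at the cell surface to CD8 T cells or natural killer cells. Transcription of these genes is driven by NLRC5, RFX, NF-kappa B and interferon regulatory factors and is raised by interferons. In the brain, class I genes are known from neurons, microglia and endothelium, and classical class I molecules have been linked to synapse refinement.

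The RNA-seq data came from the striatum of young adult mice of 2 lines, 32 libraries in all, 4 per line, genotype and sex. 3g del/+ mice were heterozygous for CRISPR/Cas9-made mutations that place premature stop codons in Taok2, Sez6l2 and Mvp, and 16p11.2 del/+ mice lacked 1 of both copies of the mouse segment equivalent to human 16p11.2. Each line had its own wild type (wt) littermates, and the labels give the strain B6129S for all groups of both lines. The study's methods, however, name C57BL/6J males as sires of the zygotes edited for the 3g line, so whether the lines share a strain background is not settled by these sources, which bears on every line value of genes that vary between strains. Other male mice gave ribosome footprints and total lysate RNA of the striatum, both from each animal, with 3 del/+ and 3 wt animals of the 3g line and 3 del/+ and 4 wt animals of the 16p11.2 line. Libraries of a group are taken as separate animals from their numbering, and p-values measure the spread between these libraries alone.

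Total counts were between 11711099 and 65529807 per RNA-seq library, between 15102576 and 19122488 per lysate RNA library and between 342052 and 678130 per footprint library. Levels are given in CPM, the count scaled to a common library size after TMM normalization over all libraries of an assay, and they are not corrected for gene length, so a level is compared only within a gene. Of the genes altered by design, Sez6l2 was at 182 to 225 CPM in del/+ and 273 to 339 CPM in wt mice of the 3g line, and at 125 to 162 CPM and 288 to 400 CPM in the 16p11.2 line. Mvp was at 4.98 to 7.46 CPM and 7.26 to 9.02 CPM in the 3g line, where the ranges overlapped, and at 2.25 to 4.15 CPM and 6.07 to 7.98 CPM in the 16p11.2 line. Taok2 was lower in 16p11.2 del/+ mice (82.8 to 95.4 CPM, against 153 to 195 CPM in wt), but in the 3g line was at 151 to 198 CPM in del/+ and 177 to 181 CPM in wt mice. The stop codons were designed to cause decay of the mRNAs. Since the ranges of Taok2 overlapped in the 3g line, Taok2 does not check the 3g labels.

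3 libraries stood apart from the others of their label. Each library was placed on an axis through the mean profiles of the wt females over the 11385 genes called between them, on which 3g wt females average 0 and 16p11.2 wt females 1. The library labelled 3g wt male 17 was at 0.857 on it, while its 15 line mates were between -0.080 and 0.171. That labelled 16p11.2 del/+ male 4 was at 0.211, against 0.825 to 1.24 for its 15 line mates. Its Taok2, however, was at the level of its label. All 4 libraries labelled 16p11.2 del/+ male held 82.8 to 95.4 CPM of Taok2, while every 3g library held at least 150.6 CPM. The library labelled 16p11.2 del/+ female 1 held 0.463 CPM of Xist and 38.6 CPM of the Y-linked gene Ddx3y, where the 15 other female libraries held at least 324 CPM of Xist and 0 CPM of Ddx3y. Values without the library concerned are given beside the results that it moved.

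The 8 heavy chain genes lie on chromosome 17 of GRCm38, within the H2 complex. H2-K1 (ENSMUSG00000061232) spans chr17:33996012-34000619, H2-D1 (ENSMUSG00000073411) chr17:35263094-35267497, and H2-Q4 (ENSMUSG00000035929) chr17:35379617-35384674. H2-Q6 (ENSMUSG00000073409) follows at chr17:35424850-35430055, H2-Q7 (ENSMUSG00000060550) at chr17:35439140-35443773, H2-T23 (ENSMUSG00000067212) at chr17:36029977-36032701, H2-T22 (ENSMUSG00000056116) at chr17:36037128-36042742 and H2-M3 (ENSMUSG00000016206) at chr17:37270234-37274485. B2m (ENSMUSG00000060802) is apart from them at chr2:122147687-122153082. Close relatives among the class I genes are near-identical over much of their length, so reads can be shared between them or dropped. The levels of such members, above all H2-Q6 and H2-Q7, are uncertain for that reason.

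Promoter sequences from RefSeq on GRCm38.p6 were matched for 9 of 9 members. 6 are shown, each as the 250 bases before a start site of the RefSeq promoter table, in the direction of transcription. For H2-Q7 that site lies downstream of the gene start given above, and H2-K1 has 2 sites within the gene span, of which the outer one was used. The windows shown are those of H2-Q6 and H2-Q7 because the pair is hard to tell apart in reads, those of H2-T22 and H2-T23 because these genes varied together, that of H2-K1 because its footprints passed a test, and that of B2m as the light chain. Capitals mark matches, on either strand, to TTTCNNTTT (the core of the interferon-stimulated response element), GGGNNTTCC (the kappa B core) or CCAAT (the Y box bound by NF-Y). The windows are chr17:35424600-35424849 (plus strand) for H2-Q6, chr17:35438905-35439154 (plus) for H2-Q7, chr17:36042743-36042992 (minus) for H2-T22, chr17:36032702-36032951 (minus) for H2-T23, chr17:34000348-34000597 (minus) for H2-K1 and chr2:122147437-122147686 (plus) for B2m.
H2-Q6: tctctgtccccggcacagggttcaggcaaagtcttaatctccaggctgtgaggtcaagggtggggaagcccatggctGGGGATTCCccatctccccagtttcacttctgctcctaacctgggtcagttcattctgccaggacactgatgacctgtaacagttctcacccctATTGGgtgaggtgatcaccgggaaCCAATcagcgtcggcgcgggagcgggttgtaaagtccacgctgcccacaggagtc
H2-Q7: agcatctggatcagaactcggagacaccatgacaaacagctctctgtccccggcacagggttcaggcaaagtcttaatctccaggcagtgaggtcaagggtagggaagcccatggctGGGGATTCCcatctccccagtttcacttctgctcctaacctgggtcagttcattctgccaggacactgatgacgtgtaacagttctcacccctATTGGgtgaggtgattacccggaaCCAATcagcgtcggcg
H2-T22: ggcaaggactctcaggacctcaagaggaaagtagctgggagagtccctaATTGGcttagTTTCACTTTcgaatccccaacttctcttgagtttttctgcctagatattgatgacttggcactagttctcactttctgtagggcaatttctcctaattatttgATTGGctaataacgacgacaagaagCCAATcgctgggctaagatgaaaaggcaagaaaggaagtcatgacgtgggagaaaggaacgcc
H2-T23: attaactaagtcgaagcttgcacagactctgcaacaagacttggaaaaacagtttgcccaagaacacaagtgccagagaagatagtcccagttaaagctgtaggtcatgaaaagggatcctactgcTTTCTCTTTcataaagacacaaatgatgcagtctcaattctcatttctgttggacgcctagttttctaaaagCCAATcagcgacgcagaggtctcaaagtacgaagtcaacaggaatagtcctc
H2-K1: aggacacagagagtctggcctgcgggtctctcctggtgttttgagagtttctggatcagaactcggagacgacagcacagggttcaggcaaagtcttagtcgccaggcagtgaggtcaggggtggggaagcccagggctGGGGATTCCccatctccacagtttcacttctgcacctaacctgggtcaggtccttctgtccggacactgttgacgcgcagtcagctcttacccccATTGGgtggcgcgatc
B2m: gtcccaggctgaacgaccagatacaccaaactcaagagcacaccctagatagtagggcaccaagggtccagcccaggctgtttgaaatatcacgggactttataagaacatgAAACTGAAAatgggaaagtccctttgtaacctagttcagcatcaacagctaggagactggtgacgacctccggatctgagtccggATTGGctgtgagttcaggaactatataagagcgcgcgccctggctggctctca

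The H2-Q6 and H2-Q7 windows aligned, with unaligned ends allowed, over 211 bases with 205 identical (97.2%). CCAAT was present in 9 of 9 member windows, against 33.8% of all 32851 windows of this length. GGGNNTTCC was present in the windows of H2-K1, H2-D1, H2-Q4, H2-Q6 and H2-Q7, 5 of 9 against 4.98% of all windows. TTTCNNTTT was present in those of H2-T22, H2-T23 and B2m, 3 of 9 against 9.37%. By these exact letters the classical and Q genes carried the kappa B core, and the T genes and B2m the interferon element. 0 of 9 windows carried all 3, against 0.152% of all. The windows of H2-K1, H2-D1, H2-Q4, H2-Q6, H2-Q7 and H2-M3 held tttcacttc, which differs from TTTCNNTTT in its last letter only. Looser forms of the motifs were not searched, so a window without a match may still hold an element. A match is a description of letters and not a bound site.

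In the 16 RNA-seq libraries of the 3g line, H2-K1 was between 13.2 and 24.5 CPM, H2-D1 between 22.3 and 31.6 CPM and B2m between 27.99 and 42.9 CPM. The highest value of all 3 genes was that of the library labelled 3g wt male 17. The 16p11.2 line had ranges that were wider at the top, from 15.1 to 27.97 CPM for H2-K1, from 23.3 to 43.0 CPM for H2-D1 and from 27.3 to 60.7 CPM for B2m. The libraries of 16p11.2 wt male 4 held the highest values of H2-D1 and B2m, and wt male 3 that of H2-K1.

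Among the nonclassical genes, H2-Q4, a poorly studied gene of the Q region, was between 1.15 and 3.00 CPM in the 3g line and between 1.09 and 3.47 CPM in the 16p11.2 line. H2-M3, which presents N-formylated peptides, was between 1.15 and 2.04 CPM and between 1.39 and 2.82 CPM. H2-Q6 and H2-Q7 encode the Qa2 antigen and were near the limit of detection. H2-Q6 had between 0 and 71 counts per library over both lines and H2-Q7 between 2 and 72 counts, and the highest value of each was in 16p11.2 wt male 3 (2.30 and 2.34 CPM).

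**Figure D1:**
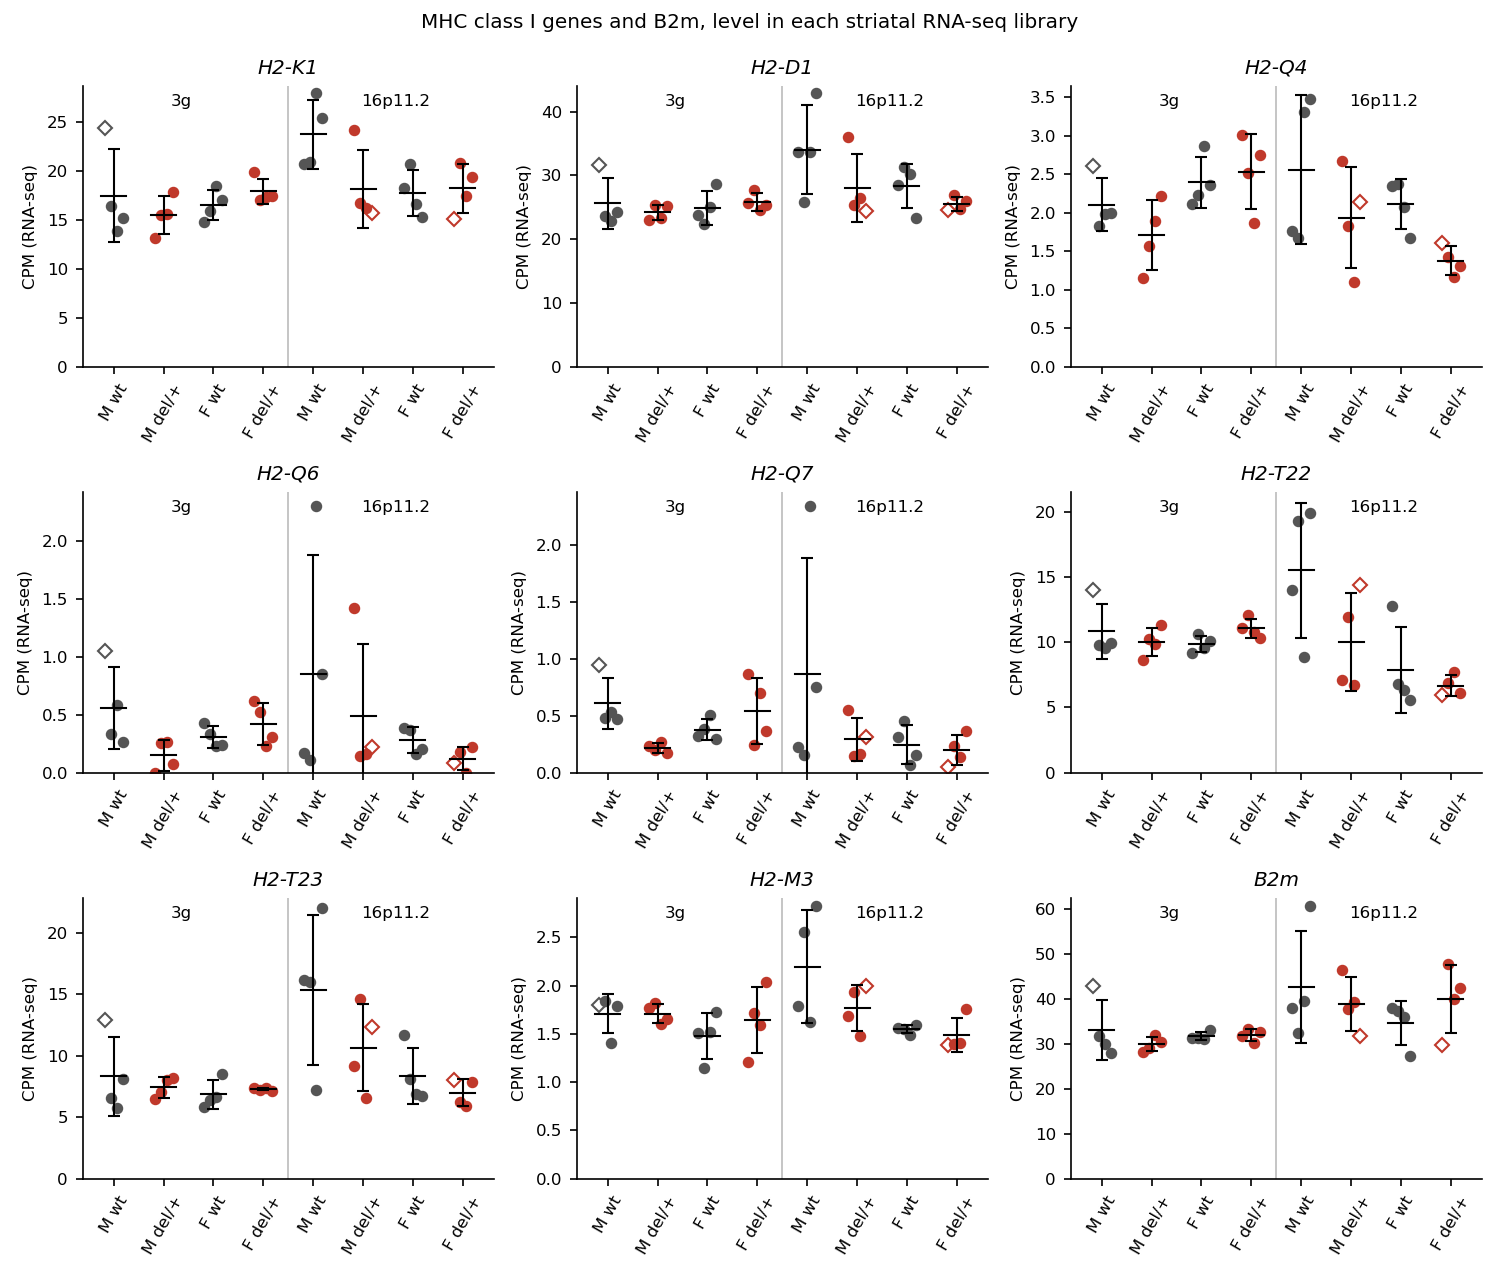
Level of each gene in CPM (linear axis from 0) in the 32 RNA-seq libraries, by line, sex and genotype, with males as M and females as F. Points are libraries, horizontal bars are means and error bars are SD (n = 4), cut at 0, and open diamonds are the 3 libraries that stand apart. H2-T22 and H2-T23 reach 19.9 and 21.97 CPM in 16p11.2 wt males, and H2-Q6 and H2-Q7 each have 1 wt male of that line at 2.30 and 2.34 CPM.

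H2-T22 and H2-T23 split into low and high libraries within the 16p11.2 line. H2-T22 encodes a nonclassical molecule recognised by some gamma delta T cells, and H2-T23 encodes the heavy chain of Qa1, a ligand of an inhibitory receptor on natural killer cells. H2-T22 was at 8.86, 14.02, 19.3 and 19.9 CPM in the wt males, at 5.60, 6.35, 6.82 and 12.7 CPM in the wt females, at 6.72, 7.12, 11.9 and 14.4 CPM in the del/+ males and at 5.97, 6.08, 6.88 and 7.72 CPM in the del/+ females. Each group but the del/+ females thus held low and high libraries. In the 3g line 15 of the libraries lay between 8.67 and 12.1 CPM, and the library labelled wt male 17 was at 14.01 CPM.

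H2-T23 had the same high libraries. It was at 7.20, 16.0, 16.2 and 21.97 CPM in 16p11.2 wt males, at 6.72, 6.87, 8.13 and 11.7 CPM in wt females, at 6.53, 9.13, 12.3 and 14.6 CPM in del/+ males and at 5.92, 6.22, 7.83 and 8.04 CPM in del/+ females. The 6 libraries of this line with the most H2-T22 were also the 6 with the most H2-T23, namely wt males 1, 2 and 4, wt female 1 and del/+ males 2 and 4. These 6 held between 11.7 and 21.97 CPM of H2-T23 and the other 10 between 5.92 and 9.13 CPM, a separation that follows from the ranking. At other cuts agreement was not full: 3 of the 4 highest libraries were shared, 4 of 5, 6 of 7 and 6 of 8. In the 3g line 3 of the 6 highest libraries were shared.

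The spread of H2-T22 around its group means, on the log2 scale with a pseudocount of 0.1 CPM, was an SD of 0.47 in the 16p11.2 line and 0.17 in the 3g line. The ratio of these SDs was 2.84, which lay at percentile 97.3 of 15026 genes with a median of at least 1 CPM or in the list, and it was 4.14 without 3g wt male 17 and 16p11.2 del/+ male 4. For H2-T23 the SDs were 0.47 and 0.29, a ratio of 1.64 at percentile 73.3. Without these libraries they were 0.49 and 0.18, a ratio of 2.67 at percentile 88.4. B2m had 0.29 and 0.15, a ratio of 1.97 (percentile 86.3) that became 4.18 (percentile 97.1) without these libraries. The middle gene had SDs of 0.18 in the 16p11.2 and 0.15 in the 3g line, so the spread of most genes was somewhat wider in the 16p11.2 line as well. Without these libraries the middle SDs were 0.16 and 0.11.

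Across the 16 libraries of the 16p11.2 line, Pearson's r between H2-T22 and H2-T23 was 0.90 on the log2 scale, that between H2-T22 and H2-M3 was 0.83 and that between H2-T22 and H2-K1 was 0.32. In the 3g line the same pairs had r of 0.76, 0.047 and 0.83 (n = 16), and without 3g wt male 17 the first was 0.47 (n = 15). These are descriptions of libraries that share line, preparation and group differences. Without that library H2-T22 and H2-K1 were at 0.66. H2-K1 and H2-D1 had r of 0.80 in the 16p11.2 and 0.77 in the 3g line, and the latter was 0.57 without 3g wt male 17. Without 16p11.2 del/+ male 4 the r of this pair was 0.78 and that of H2-T22 and H2-T23 was 0.90 in the 16p11.2 line.

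The genes whose pattern was most like that of each member were ranked by Pearson's r of log2 CPM over the 32 libraries, among genes with a median of at least 1 CPM. For H2-T22 the 3 leading genes were Tagap1 (r = 0.86), Hmga1 (0.85) and Atp6v0c (0.84), which encode a GTPase-activating protein of T cells, a chromatin protein and a subunit of the vacuolar proton pump. All 3 lie on chromosome 17, with starts at 6954965, 27556574 and 24163865. For H2-T23 they were Enpp4 (0.82) and Lrrc73 (0.81), both on chromosome 17, and Acot7 (0.78). H2-D1 was the gene most like H2-K1 (0.81). For H2-D1 it was Aimp2 (0.82), followed by H2-K1, and for B2m it was Nek7 (0.85). H2-Q4 was most like Irgm2 (0.77), H2-Q6 most like H2-Q4 (0.75) and H2-Q7 most like Gbp4 (0.65). Irgm2 and Gbp4 are interferon-induced GTPase genes. For H2-M3 the leading gene was H2-T23 (0.71). Without 3g wt male 17 and 16p11.2 del/+ male 4 (30 libraries, chosen after seeing the data) the first gene was as before for all 9 members, with r between 0.64 for H2-Q7 and 0.89 for H2-T22.

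Over residuals from the 8 group means, the leading genes were Rnps1 for H2-T22 (r = 0.85), a gene of the exon junction complex on chromosome 17, H2-T22 for H2-T23 (0.80), B2m for H2-D1 (0.82), Irgm2 for H2-Q4 (0.76) and Gbp4 for H2-Q6 (0.71). They were Uvrag for H2-K1 (0.77), Ggt1 for H2-Q7 (0.71) and Nhsl1 for H2-M3 (0.71). Residuals of the 2 libraries that lie nearer the other line on the axis carry the line difference, so the ranking was repeated without them. The first genes were then again Rnps1 for H2-T22 (0.87), Ggt1 for H2-Q7 (0.76), Gbp4 for H2-Q6 (0.72) and Irgm2 for H2-Q4 (0.79). They became Ddx4 for H2-T23 (0.82), Mpeg1 for H2-D1 (0.77), followed by B2m, H2-Q4 for H2-K1 (0.72), Gm9866 for H2-M3 (0.77) and Tuba1c for B2m (0.85). In the 16 libraries of the 3g line alone the gene most like H2-Q4 was Ecsit (0.90), that most like H2-Q7 was Fcrls (0.84) and that most like H2-Q6 was 4921524J17Rik (0.86), and no GBP or IRG gene was among the leading 3 of these members.

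The chromosome of the genes most like each member was counted after these values were seen. Among the 50 genes most like H2-T22 in the 16p11.2 libraries, 21 of the 49 with a known position lay on chromosome 17, where 4.81% of all 14172 genes with a position lie. Their starts ran from 6954965 to 79706940, far beyond the H2 complex. The count was 17 of 48 for H2-T23 and 16 of 50 for H2-M3, and 0 to 3 for each of the other 6 members. In the 3g libraries it was 1 to 4 for each of the 9 members. Without 16p11.2 del/+ male 4 the counts were 22 of 48, 18 of 49 and 16 of 50. The lists of H2-T22 and H2-T23 shared 25 genes (50% of each), 16 of them on chromosome 17.

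The levels of 4 chromosome 17 genes were set beside the split. They were picked for their likeness to H2-T22, so that they are high in the same libraries follows from the choice. In the 6 libraries of the 16p11.2 line with the most H2-T22, Tagap1 was between 8.53 and 18.9 CPM, against 6.03 to 7.45 CPM in the other 10. Rnps1 was between 31.9 and 72.0 CPM, against 27.0 to 30.8 CPM. Hmga1 was between 11.1 and 27.1 CPM, against 7.93 to 11.3 CPM, and Atp6v0c between 31.5 and 93.5 CPM, against 22.7 to 33.9 CPM, so for both the ranges overlapped. In the 3g line Rnps1 was between 45.0 and 57.0 CPM in all 16 libraries, above 11 of the 16p11.2 libraries. Del/+ male 4 was 1 of these 6 libraries, and what set them apart was not tested.

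**Figure D2:**
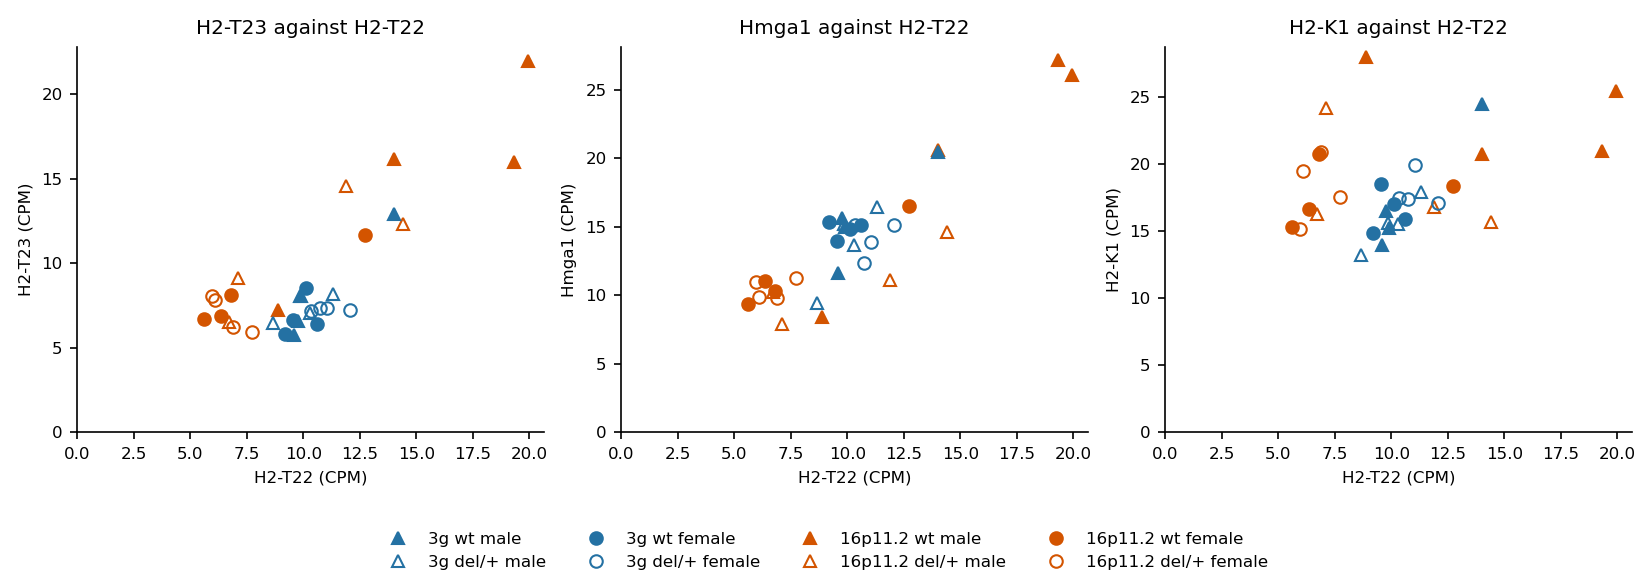
Levels in CPM (linear axes from 0) of H2-T23, Hmga1 and H2-K1 against H2-T22 in the 32 RNA-seq libraries. Each point is a library, with line by color, sex by shape and filled points for wt. In the 16p11.2 line H2-T23 and Hmga1 rise with H2-T22 up to 21.97 and 27.1 CPM, while H2-K1 reaches its highest level, 27.97 CPM, in a library with 8.86 CPM of H2-T22.

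In the lysate RNA of other 16p11.2 males H2-T22 had no such split. It was between 4.08 and 5.92 CPM in the wt animals and between 4.31 and 5.21 CPM in the del/+ animals, and in the 3g line it was between 3.45 and 5.52 CPM and between 4.97 and 5.93 CPM. H2-T23 ranged from 0.420 to 1.80 CPM over the 16p11.2 lysates (6 to 28 counts) and from 0.882 to 1.52 CPM over the 3g lysates (15 to 30 counts). Its highest 16p11.2 lysate value was 4.29 times its lowest, against 3.71 times in the RNA-seq of this line. Whether H2-T23 split in the lysates was not tested.

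The line difference compared wt mice of the 16p11.2 line with wt mice of the 3g line, with sex in the model. The line cannot be told apart from anything else that differed between both sets of libraries. All 9 members had a positive log2 fold change, higher in the 16p11.2 line (8 of 9 in DESeq2), with a median of 0.24 (range 0.028 to 0.59), where the median over all genes was -0.0038. The largest was that of H2-T23, at 11.8 ± 5.66 CPM and 7.58 ± 2.36 CPM in wt mice of the 16p11.2 and 3g lines (SD, n = 8), or 0.59 on the log2 scale with a standard error of 0.21. For H2-D1 it was 0.29 (standard error 0.10), for H2-K1 0.27 (0.11) and for B2m 0.24 (0.12), and for H2-T22 it was 0.10 (0.20). The ranges of both lines overlapped for every member, while 3.23% of all genes did not overlap.

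H2-K1, H2-D1 and H2-T23, 3 of 9, passed an adjusted p of 0.05, in a comparison in which 62.5% of all genes did, 5911 of them higher and 6055 lower in the 16p11.2 line. Since the members were chosen with this contrast known, nothing is read from the count. Without 3g wt male 17, B2m passed as well, with 67.8% of all genes, and with the del/+ libraries of both lines added and 16p11.2 del/+ male 4 also left out the same 4 passed, with log2 fold changes of 0.72 for H2-T23, 0.37 for H2-K1, 0.35 for H2-D1 and 0.32 for B2m, and 68.5% of all genes passed. That last setting was chosen after seeing the data. With other single libraries left out the number of members was between 1 and 4, and it was 1, H2-D1, without 16p11.2 wt female 1, 16p11.2 wt male 4, 3g wt male 24 or 3g wt male 26.

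The direction did not hold for every member in each sex and genotype. In wt females alone 5 of 9 were higher and 4 lower in the 16p11.2 line, with a log2 fold change of -0.32 for H2-T22 and -0.66 for H2-Q7, and 0 passed, where 59.9% of all genes did. In wt males alone all 9 were higher, with a median of 0.43 and 0.51 for H2-T22, and 0 passed, where 3 of 18561 genes passed (0.0162%). Without 3g wt male 17 the median in wt males was 0.63, and H2-T23 (1.15), H2-K1 (0.63) and H2-D1 (0.51) passed, as did 46.3% of all genes. Between the del/+ groups of the lines, 4 of 8 members were higher, B2m by 0.34 and H2-T22 lower by a log2 fold change of -0.37, and these 2 passed, as did 60.6% of all genes. Without 16p11.2 del/+ male 4 and the library labelled female 1, again 4 of 8 were higher, and the values were 0.44 for B2m and -0.46 for H2-T22, which passed with 66.4% of all genes. Both settings without libraries were chosen after seeing the data.

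In wt lysate RNA, from other animals, the line difference was not of this kind. Of 5 members that passed the count filter 2 were higher and 3 lower in the 16p11.2 line, from -0.20 (H2-K1) to 0.21 (H2-T22) on the log2 scale, and 0 passed an adjusted p of 0.05 in edgeR or DESeq2, where 0.0139% of all genes did in edgeR. At an unadjusted p under 0.05, 0 members passed and 10.8% of all genes did. In wt footprints B2m, the 1 member past the filter, had a log2 fold change of -0.27 and did not pass by either tool or unadjusted, with 0.241% of all genes called and 10.5% at the unadjusted threshold.

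Genes that feed or control the class I pathway were called between the lines in both directions. In this comparison 62.5% of all genes passed, so a call alone says little about the pathway. Of 13 genes of peptide supply and loading 3 rose in the 16p11.2 line and 0 fell: Psmb10, an immunoproteasome subunit (log2 fold change 0.81, adjusted p = 0.000300, edgeR), Pdia3, a disulfide isomerase of the loading complex (0.44, adjusted p = 0.000226) and Tapbpl, the peptide editor TAPBPR (0.38, adjusted p = 0.00179). Of 15 transcription factors 3 rose, among them Rfxap and Nfyb (named after their values were seen), and 6 fell. Those that fell most, by edgeR, were Nlrc5, the class I transactivator (-0.87, adjusted p = 0.000197), Rfx5 (-0.73, adjusted p = 5.02e-05), Irf9 (-0.58, adjusted p = 0.000145) and Stat2 (-0.44, adjusted p = 0.000126). The share called, 9 of 15, was near that of all genes.

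Of 17 interferon-induced genes 16 were tested, and 2 rose (Ifit3, 0.74 with adjusted p = 0.00348, and Ifi27, 0.70 with adjusted p = 7.22e-05, edgeR) and 2 fell (Iigp1, -0.63 with adjusted p = 0.0466, and Isg15, -0.38 with adjusted p = 0.0147). Of 4 other partners of beta-2 microglobulin, Cd1d1, which presents lipids, fell (-0.81, adjusted p = 0.00131) and Mr1, which presents microbial metabolites, rose (0.33, adjusted p = 0.0183). Of 7 class II genes 0 rose and 2 fell, the transactivator Ciita (-0.90, adjusted p = 0.000114) and H2-Aa (-0.65, adjusted p = 0.00847). The share of all genes that passed was 62.5%.

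None of the other class I genes tested was called higher, and the share called, 5 of 8, was near that of all genes. Among 24 such genes 8 were tested, and 5 of these fell in the 16p11.2 line and 0 rose, among them H2-M10.2 (-1.34, adjusted p = 0.00285, edgeR), H2-T10 (-0.90, adjusted p = 0.000574), H2-Bl (-0.84, adjusted p = 0.0136) and H2-T24 (-0.60, adjusted p = 0.0139). H2-T10 is a close relative of H2-T22, with which it can share reads. Of 231 genes that start between H2-K1 and H2-M3 on chromosome 17, 112 were tested, and 33 rose and 33 fell, a share near that of all genes. The ones with the largest changes were the complement gene C4a (-2.07, adjusted p = 9.36e-05) and Cdsn, a corneodesmosome gene (1.62, adjusted p = 0.000832).

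Cell type markers moved between the lines as well, in a comparison in which 62.5% of all genes passed. Of 9 endothelial markers 8 fell in the 16p11.2 line and 0 rose (median log2 fold change -0.48), of 5 oligodendrocyte markers 4 rose and 0 fell (0.67), and of 10 microglial markers 2 rose and 2 fell (0.10). Of the other lists, 3 of 5 astrocyte and 1 of 8 striatal projection neuron markers rose, and 2 of 8 striatal projection neuron, 2 of 5 choroid plexus and 1 of 3 tested leukocyte markers fell. None of 5 red blood cell markers passed. The summed level of the endothelial list over all libraries was 119 to 333 CPM in the 16p11.2 and 172 to 318.02 CPM in the 3g line, that of the microglial list 398 to 586 CPM and 421 to 522 CPM. No endothelial or microglial marker was at 0 in any RNA-seq library. In bulk tissue fewer cells of a type and less RNA per cell cannot be told apart, and the part of these shifts in the member values was not tested. Markers of striatal projection neurons (Drd1, Drd2, Ppp1r1b and others) summed to between 3758 and 6869 CPM in all RNA-seq libraries, and none was at 0 in any of these libraries.

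**Figure D3:**
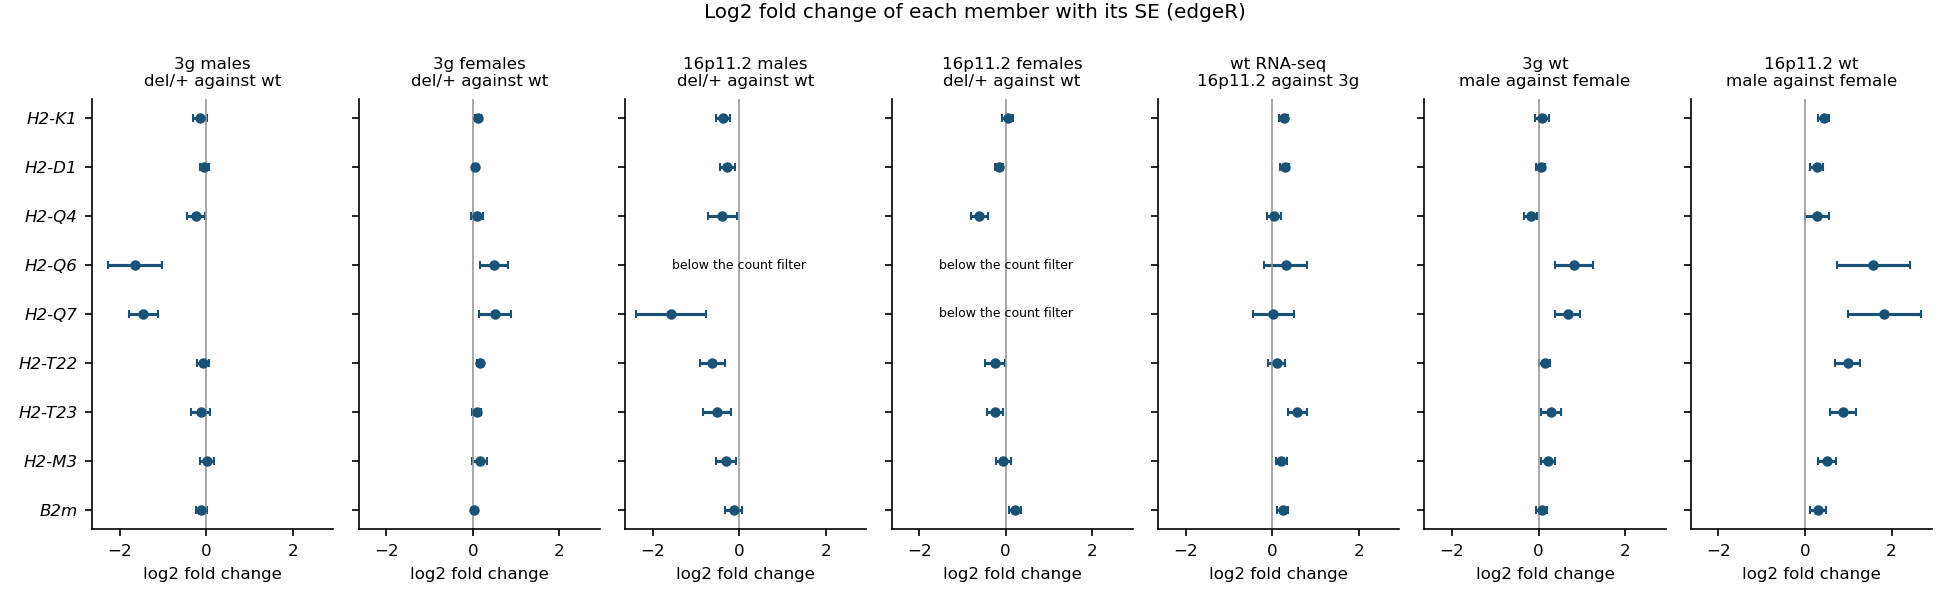
Log2 fold change of each member with its standard error (edgeR) in 7 comparisons of RNA-seq libraries. A value right of 0 is higher in the first group named above the panel, and members without a point were below the count filter. In 16p11.2 males all tested members lie left of 0 for genotype (-1.58 to -0.13), and in 16p11.2 wt mice all lie right of 0 for sex (0.27 to 1.84).

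In 3g males, del/+ against wt, 8 of 9 members had a negative log2 fold change and 1 a positive one, with a median of -0.13. H2-Q7 was at 0.171, 0.195, 0.230 and 0.266 CPM in del/+ males and at 0.472, 0.482, 0.533 and 0.941 CPM in wt males. Every del/+ male was below every wt male, and the log2 fold change was -1.46 (standard error 0.34). H2-Q6 was at 0, 0.0731, 0.260 and 0.266 CPM in del/+ males and at 0.267, 0.332, 0.582 and 1.05 CPM in wt males, a log2 fold change of -1.66 (0.62), with the highest del/+ and the lowest wt value next to each other. These values rest on 0 to 9 counts per del/+ library. The other 7 members ranged from -0.24 (H2-Q4) to 0.019 (H2-M3).

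Without 3g wt male 17, 5 other members moved to the other side of 0. The log2 fold change was then 0.055 for H2-K1, 0.053 for H2-D1, 0.15 for H2-T23, 0.064 for H2-T22 and 0.021 for B2m, and 6 of 9 were positive. H2-Q7 (-1.20) and H2-Q6 (-1.18) kept their direction. In 3g females all 9 members had a positive log2 fold change, from 0.024 (B2m) to 0.51 (H2-Q7), with a median of 0.13, and the groups overlapped for every member. In these RNA-seq libraries the Q genes thus stood lower in del/+ males and higher in del/+ females of the 3g line, and whether the sexes differ was not tested. In lysate RNA of other 3g males their means were higher in del/+ than in wt, with overlap. The del/+ and wt means were 0.741 and 0.402 CPM for H2-Q4, 0.280 and 0.131 CPM for H2-Q7, and 0.238 and 0.158 CPM for H2-Q6.

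In 16p11.2 males the 8 members past the count filter all had a negative log2 fold change, from -1.58 to -0.13, with a median of -0.39. H2-K1 was at 15.7, 16.3, 16.8 and 24.2 CPM in del/+ males and at 20.8, 20.9, 25.4 and 27.97 CPM in wt males, a log2 fold change of -0.38 (standard error 0.16). Del/+ male 1 alone reached into the wt range. The value was -0.62 (0.30) for H2-T22, -0.52 (0.32) for H2-T23, -0.27 (0.17) for H2-D1 and -0.13 (0.19) for B2m.

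H2-Q7 in these males was at 0.148, 0.161, 0.310 and 0.548 CPM in del/+ and at 0.160, 0.227, 0.748 and 2.34 CPM in wt mice. Its log2 fold change of -1.58 (standard error 0.81) rested on wt male 3 and was -0.36 without it. Wt male 3 also held the most Gbp4, an interferon-induced GTPase gene (4.45 CPM, against 0.398 to 2.56 CPM in the 15 other 16p11.2 libraries). Without 16p11.2 del/+ male 4 all 9 members passed the filter and were lower, with a median of -0.45 and a value of -0.85 for H2-T22. Without wt male 4, B2m was at 0.093.

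In 16p11.2 females the 7 members past the filter had log2 fold changes from -0.61 to 0.21, 2 of them positive, with a median of -0.15. H2-Q4 was at 1.16, 1.31, 1.42 and 1.61 CPM in del/+ and at 1.67, 2.07, 2.34 and 2.37 CPM in wt females, a log2 fold change of -0.61 (standard error 0.19), with no overlap. The highest del/+ value was that of the library labelled female 1, without which it was -0.69. H2-T22 had -0.25, which was -0.20 without this library and 0.089 without wt female 1, the only wt female with a high level. B2m had 0.21 and 0.33 without the library labelled female 1. Red blood cell markers were at 0.38 to 0.79 in this comparison, with summed levels of 45.0 to 88.7 CPM in del/+ and 26.7 to 56.3 CPM in wt females, and their part was not tested.

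0 of the 9 members passed an adjusted p of 0.05 in any of the 4 genotype comparisons, in edgeR or in DESeq2. The share of all genes that edgeR called was 0% and 0.00526% for males and females of the 3g line, and 0.106% and 0.144% for males and females of the 16p11.2 line. At an unadjusted p under 0.05, the members were H2-Q6 and H2-Q7 in 3g males (1.44% of all genes), H2-T22 in 3g females (11% of all genes), H2-K1 in 16p11.2 males (5.82%) and H2-Q4 in 16p11.2 females (4.47%). The groups did not overlap for 2 of 9 members in males and 0 in females of the 3g line, and for 0 members in males and 1 in females of the 16p11.2 line. Over all genes tested 1.94% and 5.08% did not overlap in males and females of the 3g line, and 3.82% and 2.85% in those of the 16p11.2 line. No member had an unadjusted p under 0.05 in more than 1 comparison, and since the rule used this contrast nothing is read from them.

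The lists around the pathway did not pass either. None of the genes of peptide supply and loading, class I transcription, interferon induction, other beta-2 microglobulin partners or class II passed an adjusted p of 0.05 in edgeR in any of the 4 comparisons. The median log2 fold change of the 16 interferon-induced genes tested was -0.00051 and 0.35 in males and females of the 3g line, and -0.34 and 0.0065 in males and females of the 16p11.2 line. In 16p11.2 males all 16 lay between -1.17 and -0.013. Of this list Igtp was at 1.73, 1.75, 3.57 and 4.22 CPM in 16p11.2 wt males 1 to 4. Gbp2 was at 1.73, 1.73, 2.66 and 3.26 CPM, so both were high in wt males 3 and 4. Whether the rest of the list rested on these males was not tested. For the 7 class II genes the median in 16p11.2 males was -0.98 (range -1.29 to 0.35). The interferon median had the sign of the members' median in 3g females and in males of both lines, though in 3g males it was only -0.00051. In 16p11.2 females the signs were opposite, with 0.0065 against -0.15 for the members. For the 10 microglial markers the medians were between -0.12 and 0.096 in the 4 comparisons.

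In the lysate RNA of 3g males 6 members passed the filter, and all 6 had a positive log2 fold change (median 0.23, range 0.021 to 0.88). In 16p11.2 males 2 of 5 were positive (median -0.081, range -0.67 to 0.11). H2-K1, at 2.67, 2.80 and 4.91 CPM in del/+ and 2.89 to 3.77 CPM in wt lysates of this line, had a value of 0.11, which was -0.24 without the highest del/+ animal, against -0.38 in the RNA-seq of other males. 0 members passed an adjusted or unadjusted p of 0.05 in edgeR or an adjusted one in DESeq2, where edgeR called 0.0209% and 0.133% of all genes in the 3g and 16p11.2 lysates and 4.92% and 4.41% had an unadjusted p under 0.05.

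B2m was the member with enough footprints for a fit in both lines. Its values were 53.7, 76.1 and 81.0 CPM in 3g del/+ and 30.9, 40.0 and 45.3 CPM in 3g wt males, from 14 to 60 footprints per library, a log2 fold change of 0.80 (standard error 0.29) with no overlap, as for 14.2% of all genes. In the 16p11.2 line they were 28.4, 34.7 and 64.2 CPM in del/+ and 9.83, 29.4, 43.8 and 47.8 CPM in wt males, with overlap (6.79% of all genes had none) and a value of 0.40 (0.41). H2-K1 in the 3g line had 0.22, and the other members were below the filter. 0 members passed the adjusted threshold in edgeR or DESeq2, where edgeR called 0.0132% of all genes in 3g and 0.117% in 16p11.2 footprints. At an unadjusted p under 0.05 B2m passed in the 3g line, where 7.97% of all genes did, and 0 members passed in the 16p11.2 line, where 6.15% did. Since the choice of genes used this contrast, nothing is read from these counts. In 3g footprints the endothelial list summed to 86.2 to 102 CPM in del/+ and 68.9 to 79.9 CPM in wt males. The red blood cell list was at 333 to 710 CPM and 249 to 378 CPM, and the microglial list at 294 to 339 CPM and 269 to 492 CPM. Their part in the B2m value was not tested.

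The sexes were compared in the wt mice of each line, a contrast the choice of genes did not use directly. Its libraries are those of the wt line difference and of the genotype comparisons, which did enter that choice, so the values and their p are not independent of it. In the 16p11.2 line all 9 members were higher in males, with a median log2 fold change of 0.51 (0.0043 over all genes). 0 of 9 passed an adjusted p of 0.05 in edgeR or DESeq2, where 0.0336% of all genes passed in edgeR. At an unadjusted p under 0.05 there were 4 members in edgeR, where 5% of all genes passed, and 6 in DESeq2.

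The 4 members were H2-K1, H2-T22, H2-T23 and H2-M3. H2-K1 was at 20.8 to 27.97 CPM in wt males and at 15.3, 16.6, 18.3 and 20.7 CPM in wt females, with no overlap, and differed by 0.43 on the log2 scale (standard error 0.13; adjusted p = 0.817, edgeR). H2-M3 was at 1.62, 1.79, 2.55 and 2.82 CPM in males and 1.49 to 1.59 CPM in females, also with no overlap, as for 3.29% of all genes (0.51, standard error 0.21, adjusted p = 0.951). H2-T22 had 0.98 (0.30, adjusted p = 0.817) and H2-T23 0.88 (0.30, adjusted p = 0.819), with overlap. Higher levels in males were thus seen in these libraries but did not pass the adjustment over all genes.

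Without wt male 3, the male with low H2-T22 and H2-T23, the values were 1.18 for H2-T22 (adjusted p = 0.446, edgeR) and 1.13 for H2-T23 (adjusted p = 0.267). H2-Q7 had 1.84 (standard error 0.85, adjusted p = 0.968) with all libraries and 0.64 without this male. The 16 interferon-induced genes tested were all higher in males, by 0.10 to 0.88 (median 0.47), and 0 passed. The same wt males entered the genotype comparison of 16p11.2 males, so the shifts of this list in both comparisons are not independent. The red blood cell markers were also higher, by 0.93 to 1.17, with summed levels of 51.9 to 88.9 CPM in wt males and 26.7 to 56.3 CPM in wt females, and none of the 5 was at 0. The microglial list summed to 462 to 586 CPM and 398 to 545 CPM. Their part in the member values was not tested.

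In the 3g line 8 of 9 members were higher in wt males, with a median log2 fold change of 0.14. 0 passed an adjusted p in edgeR or DESeq2, where 0.0308% of all genes passed in edgeR. 1 member, H2-Q7 (0.67, adjusted p = 0.948, edgeR), had an unadjusted p under 0.05, as did 2.85% of all genes. Without wt male 17 the values of H2-K1 (-0.10), H2-D1 (-0.061) and B2m (-0.069) were negative. The interferon-induced list had a median of -0.084, and the red blood cell markers were at 0.59 to 0.87. Whether the sex difference itself differed between the lines was not tested.

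Footprints were set against lysate RNA of the same wt animals, to see which members had more ribosome-protected fragments than their share of RNA. H2-K1 had more in both lines. In the 3g line its level was 3.43, 3.67 and 4.01 CPM in lysate RNA and 8.88, 19.4 and 19.8 CPM in footprints, and in the 16p11.2 line it was 2.89, 2.99, 3.31 and 3.77 CPM in lysate RNA and 10.9, 12.3, 15.7 and 20.4 CPM in footprints. Every footprint value was above every lysate value, in 7 of 7 wt animals, as for 33.9% of all genes in the 3g and 25% in the 16p11.2 line. The log2 ratio was 1.68 in the 3g line (standard error 0.41, adjusted p = 0.00182, edgeR) and 1.72 in the 16p11.2 line (0.42, adjusted p = 0.00138), that is 3.20-fold and 3.29-fold. In the RNA-seq of other wt males mean H2-K1 was 17.5 and 23.8 CPM, against 3.71 and 3.24 CPM in lysate RNA. Mean footprints were 16.1 and 14.8 CPM. B2m differed less, with 33.1 and 42.6 CPM in RNA-seq and 23.5 and 23.4 CPM in lysate RNA. The part of the low lysate level in this ratio, with reads shared among class I genes, was not tested.

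H2-K1 had 4 to 14 footprints per library, 105 in all 13 libraries, so each value carries a large counting error. It passed in 10 of 10 alternatives in the 3g line (adjusted p between 9.08e-06 and 0.0325) and in 11 of 11 in the 16p11.2 line (between 4.60e-06 and 0.0170). With the animal as a replicate block it had 1.63 (adjusted p = 0.0187, edgeR) and 1.72 (adjusted p = 0.00203). Of all genes tested 44.1% in the 3g and 44.6% in the 16p11.2 line passed in this comparison, in both directions, so a call was common.

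H2-D1 was also higher in footprints, by less than H2-K1, and did not pass in edgeR with TMM normalization. Its footprints were at 8.82, 8.88 and 19.4 CPM in the 3g line, with lysate levels of 4.18 to 4.68 CPM (log2 fold change 1.06, adjusted p = 0.0538, edgeR). They were at 4.91, 8.70, 11.7 and 17.6 CPM in the 16p11.2 line, with lysate levels of 2.79 to 4.57 CPM (1.01, adjusted p = 0.0831). DESeq2 called H2-D1 in both lines (adjusted p = 0.00925 and 0.0141), as did edgeR with RLE normalization (0.0376 and 0.0492).

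Low genes entered this fit through the footprint libraries, in which 1 read is worth 1.47 to 2.92 CPM, against a filter at 1.18 CPM in the 3g and 1.27 CPM in the 16p11.2 line. H2-M3 was below the filter in lysate RNA and in footprints alone, with at most 0.592 and 0.736 CPM in lysate libraries of the 3g and 16p11.2 lines, so the filter favoured a ratio above 0 and nothing is read from its test. The value was 3.02 on the log2 scale in the 3g line (standard error 0.97; edgeR, adjusted p = 0.0140) and rested on 1 animal. 1 wt male, numbered 300, had 6 footprints and the others had 1 and 0, and without this male the value was 0.87 (adjusted p = 0.758, edgeR). In the 16p11.2 line it was 1.99 (adjusted p = 0.128).

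For the light chain the footprints matched its RNA more closely. B2m had a log2 fold change of 0.28 in the 3g line (adjusted p = 0.435, edgeR) and 0.028 in the 16p11.2 line (adjusted p = 0.950), from 296 footprints in all. H2-T22 was the 1 member below 0, with -1.44 in the 3g (adjusted p = 0.133) and -0.26 in the 16p11.2 line (adjusted p = 0.695). H2-T23 had 1.102 in the 3g line (adjusted p = 0.277) and nearly the same in the 16p11.2 line (adjusted p = 0.230). H2-Q4 had 1.98 and 1.33 (adjusted p = 0.198 and 0.480), from at most 2 footprints per wt library, and was at or above the filter in 1 of 6 lysate libraries of the 3g and 0 of 7 of the 16p11.2 line, so the filter favoured a value above 0 here too. Whether members differ from each other in this ratio was not tested. H2-Q6 and H2-Q7 were below the filter, with 0 footprints in 11 of 13 libraries each. A count of 0 allows a level of up to 4.42 to 8.77 CPM, depending on the library, for counting error alone, so their footprints were not detectable at this depth.

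**Figure D4:**
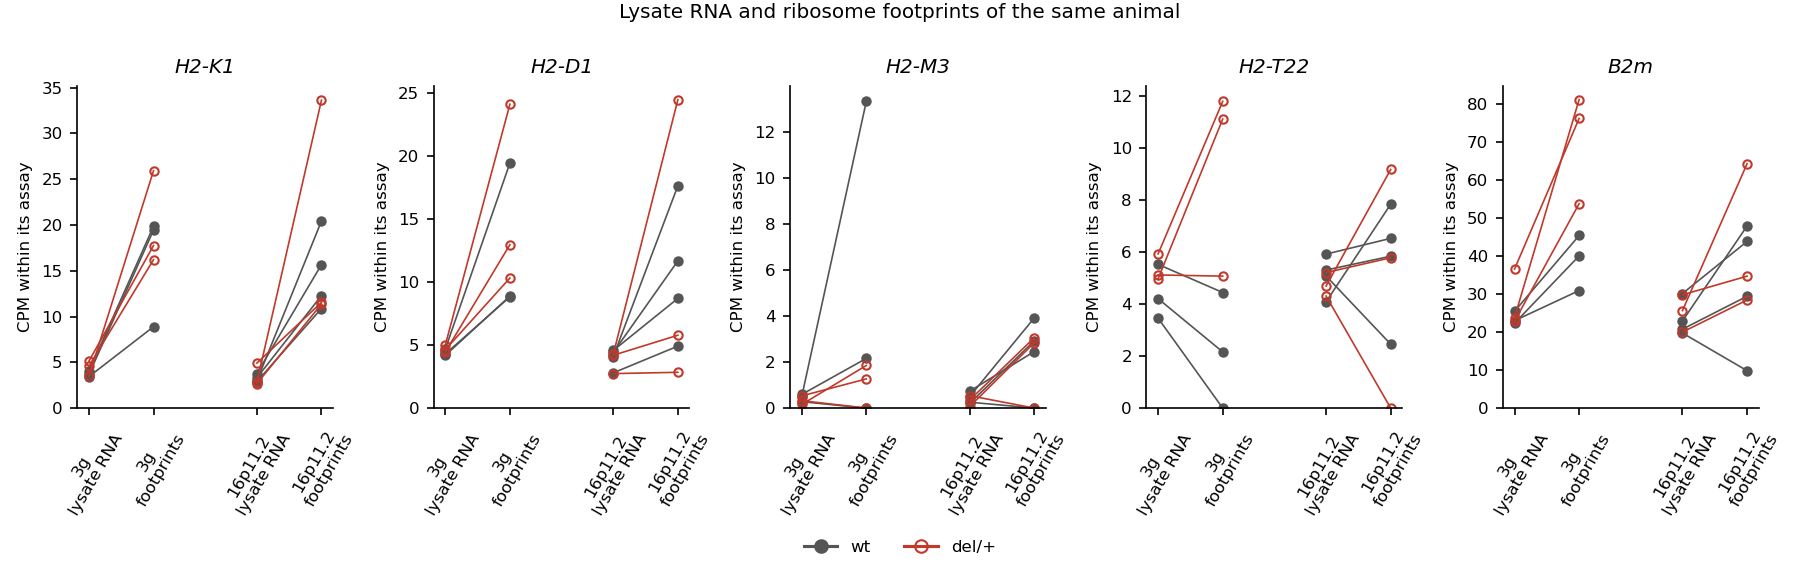
Levels in CPM within each assay (linear axes from 0) of 5 members in lysate RNA and ribosome footprints, by line. Each line joins the libraries of 1 animal, in gray with filled points for wt and red with open points for del/+. H2-K1 rises from lysate RNA to footprints in every animal, H2-M3 has 1 animal at 13.3 CPM, and B2m reaches 81.0 CPM in 3g del/+ footprints.

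Other genes of the pathway passed in this comparison in both directions, where 21% of all genes in the 3g and 20% in the 16p11.2 line were higher in footprints. Of the peptide supply and loading genes 3 of 12 tested rose in the 3g line, Psme1, a proteasome activator subunit (log2 fold change 1.52, adjusted p = 0.00707, edgeR), Calr (1.21, adjusted p = 5.38e-06) and Pdia3 (1.13, adjusted p = 4.55e-05), and 2 of 13 in the 16p11.2 line, Pdia3 (1.31, adjusted p = 4.95e-05) and Calr (0.69, adjusted p = 0.0141). Calr and Pdia3 encode endoplasmic reticulum chaperones. 0 fell in either line. Of the class I transcription factors 1 rose and 3 fell in each line, where 23% of all genes in the 3g and 24.5% in the 16p11.2 line were lower in footprints. Those that fell, by edgeR, were Creb1 (-2.90, adjusted p = 7.82e-07, and -1.47, adjusted p = 2.19e-07, in the 3g and 16p11.2 lines), Irf2 (-1.46, adjusted p = 0.000293, and -1.82, adjusted p = 3.13e-06) and Nfyb (-0.71, adjusted p = 0.0113, and -0.48, adjusted p = 0.0424). Rela rose in the 3g line (0.86, adjusted p = 0.0342) and Nlrc5 in the 16p11.2 line (2.54, adjusted p = 0.0374). Of the other partners of beta-2 microglobulin, Mr1 rose in the 3g line (1.75, adjusted p = 0.0146) and Fcgrt, the neonatal Fc receptor gene, in the 16p11.2 line (1.64, adjusted p = 0.00273). Whether the genes of this paragraph, Nlrc5 and Mr1 among them, passed the filter in lysate RNA alone was not checked. For a gene that did not, the filter favoured a value above 0.

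Of 4 other class I genes tested H2-Q1 (3.55, adjusted p = 0.00588, edgeR) and H2-Q10 (3.48, adjusted p = 0.00755) rose in the 3g line and H2-Q10 (4.998, adjusted p = 0.000351) in the 16p11.2 line. These are near copies of the Q members, and both were below the filter in all lysate libraries, so the same holds for them. The microglial markers moved the same way, with 5 of 10 higher and 0 lower in each line (median 1.12 and 1.05), among them C1qa and Csf1r. Their summed level in wt animals was 128 to 150 CPM in lysate RNA and 269 to 492 CPM in footprints of the 3g line, and 110 to 142 CPM and 236 to 374 CPM in the 16p11.2 line. At most 1 of the 10 markers was at 0 in a footprint library. Their part in the H2-K1 value was not tested.

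Translational efficiency, footprints per lysate RNA, was compared between genotypes through a genotype by assay term. 0 of the 7 members tested passed in either line, in edgeR or DESeq2, adjusted, and 0 had an unadjusted p under 0.05. Of all genes edgeR called 0% in the 3g and 0.00664% in the 16p11.2 line, and 7.67% and 6.24% had an unadjusted p under 0.05. The largest values in the 3g line were -1.93 for H2-M3, which became 0.22 without the wt male numbered 300, 1.73 for H2-T22 (standard error 0.89, adjusted p = 0.681, edgeR) and 0.61 for B2m (0.34, adjusted p = 0.703). H2-T22 had 4, 6 and 8 footprints in 3g del/+ and 0, 1 and 2 in 3g wt libraries. Values in the 16p11.2 line were between -0.20 and 0.69.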

How the data were processed

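Gene counts of striatal RNA-seq (32 libraries), lysate RNA (13) and ribosome footprints (13) were used as deposited. The deposited counts were made by the authors and were not normalized; per the labels' processing notes HTSeq on mm10 was used for RNA-seq and Bowtie2 on mm39 for lysate RNA and footprints, and bcbio-nextgen is named in the study's methods for RNA-seq. For RNA-seq the study's methods name a stranded kit for total RNA with ribosomal RNA removal. The strand setting of the counting, treatment of reads that match several genes and footprint length filters are not given in the sources used here. Reads of near-identical class I genes, overlapping genes and antisense partners therefore cannot be told apart. Gene symbols were matched by Ensembl ID to RefSeq for 54409 of 54532 IDs in RNA-seq and 18377 of 18411 in the other tables, and positions and promoters are those of RefSeq on GRCm38.p6. No coordinates of mm39 were used.

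Groups were taken from the labels. Genes were filtered with filterByExpr, normalized with TMM and tested with the quasi-likelihood test of edgeR 4.0.16 (R 4.3.3) in each comparison, with Benjamini-Hochberg adjustment over all genes tested and a threshold of 0.05. All adjusted p-values in the text are from edgeR unless DESeq2 is named. Footprints and lysate RNA of a line were fitted together, in 4 groups of assay and genotype. The code was tested on simulated counts. Likeness used log2 CPM with a pseudocount of 0.1. Alternatives were DESeq2 1.42.0, RLE normalization, no filter, each library left out in turn, a replicate block, 1 sex, the del/+ libraries for the line difference, and all 16 libraries of a line in 1 fit. No pair of libraries of a group was a duplicate. A footprint and a lysate library share an animal per the labels, and their deviations from the group means correlated at 0.058 to 0.163.

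The members and gene lists were chosen with earlier results of these data known. All 9 members are named, and of each list at most 4 genes past the threshold, by the size of the log2 fold change. The genes most alike are the leading 3 by Pearson's r, among genes with a median of at least 1 CPM, over all 32 libraries and over residuals from group means, of which the first is named, except for B2m over residuals, which is not reported here. Rnps1 and the chromosome 17 counts were described after their values were seen, as was Gbp4 in single libraries. Library totals, given with the data, set the precision: a count of 0 allows up to 3 counts, for counting error alone.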

Additional observations from a re-analysis of the deposited data

Results flagged for a closer look

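Among the 4 or more libraries of a group, a value whose gap to its nearest neighbour took up nearly all of the group's range was singled out in 9 of 89 combinations of gene and group, where chance flags about 1 in 20 groups (4.45 of 89). 3 of the 9 belong to the library labelled 3g wt male 17, which stood apart from its line: H2-D1 at 31.6 CPM (22.9 to 24.3 CPM in the other 3 wt males), H2-T22 at 14.01 CPM (9.57 to 9.91 CPM) and H2-Q7 at 0.941 CPM (0.472 to 0.533 CPM). 2 belong to 16p11.2 del/+ male 1, with H2-K1 at 24.2 CPM (15.7 to 16.8 CPM in the others) and H2-Q6 at 1.42 CPM (0.148 to 0.225 CPM). H2-M3 was high in 16p11.2 del/+ female 4, at 1.76 CPM (1.39 to 1.41 CPM), and low in 3g wt male 26, at 1.41 CPM (1.79 to 1.84 CPM). H2-K1 was at 19.9 CPM in 3g del/+ female 28 (17.1 to 17.4 CPM). In 16p11.2 wt footprints 1 library had 2.17 CPM of H2-Q6, which is 1 read, and the others had 0. What set these libraries apart was not tested.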

How the results depend on the processing

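The number of members past the threshold was 0 in the 4 RNA-seq genotype comparisons, both sex comparisons, both comparisons of translational efficiency and the genotype comparisons of lysate RNA and footprints, under every alternative run. For the line difference in wt RNA-seq it was 3, where 62.5% of all genes passed. It was 0 in wt females alone and 0 in wt males alone, which are fits of 8 libraries. With 1 library left out it was between 1 and 4. For footprints against lysate RNA it was 2 in the 3g line, where 44.1% of all genes passed, and between 1 and 3 with 1 library left out (1 without the wt male numbered 300). 1 of these 2 was H2-M3, which entered through the footprint libraries, so nothing is read from its call. In the 16p11.2 line the number was 1, where 44.6% of all genes passed, and 3 with DESeq2 and 2 with RLE normalization. The cause was not tested. With the animal as a replicate block, the counts were 2 and 1 as before. In 16p11.2 RNA-seq del/+ and wt libraries, and males and females, share the numbers 1 to 4, but same-numbered libraries did not deviate together (r between -0.39 and 0.12), and the replicate block left 0 members past the threshold in each comparison, so it changed no call. Of 1322 single member values under alternatives 81 lay on the other side of 0 from the value with all libraries. Among values given as a description or past the threshold, 839 moved by less than the spread between libraries or kept their side of the threshold, 16 moved by more and 1 was no longer past the threshold (H2-M3 footprints). Beside those given in the report, H2-Q4 in 3g lysate RNA moved from 0.88 to 1.75 without 1 wt animal and H2-T23 in 16p11.2 lysate RNA from -0.67 to -1.32 without 1 del/+ animal, and in del/+ mice the line difference was -0.38 for H2-Q4 and -0.049 for H2-M3.

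H2-Q6 and H2-Q7 had under 10 counts in many libraries, and in footprints 8 of 9 members had at most 19 counts, so small differences were not detectable there. Reads shared among class I genes could not be separated, and the line cannot be told apart from the set of libraries.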
